A study of Mus musculus with 7 samples.

Results

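The DNA replication machinery was followed as a list of 37 mouse genes, of 37620 in the count tables, in 7 brain tumours. The list was drawn up by function, from genes that license replication origins, copy DNA at the fork, supply nucleotides or rebuild chromatin behind the fork, and all 37 symbols were found. The tumours grew in nude mice, which lack mature T cells, after tumour cells derived from neural stem cells (NSC) of the subventricular zone had been implanted into the brain following 10 to 15 passages in culture. GSC1 (4 tumours) carried the changes labelled lgT/Ras, and GSC2 (3 tumours) carried those labelled shp53, Nf1-/- and CDK4. Each set of changes was present in 1 line and both lines were grown from neural stem cells, so GSC2 against GSC1 compares 2 lines and not the changes one by one. Nothing in the labels says that tumours of 1 line came from separate cultures, so p-values measure the spread between these tumours.

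Replication starts when the origin recognition complex, Cdc6 and Cdt1 load the Mcm2 to Mcm7 helicase onto DNA, and Cdc45 and the GINS complex then switch the helicase on. Polymerase alpha with its primase lays primers, polymerases epsilon and delta extend them on the sliding clamp Pcna, and the new strands are joined and wrapped into chromatin. Many of these genes are transcribed mainly in dividing cells under the control of E2F factors, while most cells of the adult brain no longer divide.

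Depth ranged from 18643155 to 32643408 reads on genes per tumour. 2 properties of the libraries touch what follows. The first is the brain score, the mean log2 CPM (read counts scaled by library size, with a prior count of 2) over 29 marker genes of neurons and mature oligodendrocytes, none of which is a replication gene of the list. In the order of the replicate numbers, which holds for every series of values below, it was 5.89, 4.57, 8.49 and 7.77 in the 4 GSC1 tumours and 6.03, 7.61 and 7.36 in the 3 GSC2 tumours. The second is a difference in level between genes with long and short transcripts, as a median log2 deviation from the mean over tumours: that of non-member genes 8000 bases or longer, less that of non-member genes 2000 bases or shorter. Read coverage along transcripts was not measured. It was 0.02, 0.54, -0.40 and -0.36 in GSC1 and 0.37, 0.64 and -0.70 in GSC2, so GSC1 replicates 3 and 4 and GSC2 replicate 3 are called short-biased below. The score was above 7 in 4 tumours, and 3 of these are the short-biased libraries. The summed level of 9 astrocyte markers was likewise lowest in GSC1 replicate 2 (1930 CPM) and highest in GSC1 replicate 3 (12241 CPM), and that of 12 microglia and macrophage markers ranged from 1083 CPM in GSC1 replicate 2 to 2382 CPM in GSC2 replicate 3. Choroid plexus markers were at 2.43 to 40.7 CPM in GSC1 replicates 1 to 3, at 8889 CPM in GSC1 replicate 4 and at 2126 to 4919 CPM in GSC2. Of 7 markers of T and natural killer (NK) cells, Cd3e, Cd3d and Cd3g, which define T cells, did not pass the filter on low counts. The other 4 (Nkg7, Gzma, Gzmb and Klrb1c), all made by NK cells, summed to 1.35 to 10.0 CPM in GSC1 and 6.17 to 11.9 CPM in GSC2. None of the 4 passed between the lines. Nkg7 and Gzma were higher in every GSC2 tumour than in any GSC1 tumour, where 5.58% of all genes did not overlap in either direction. Gzma and Gzmb fell with the brain score, as did 23.3% of all genes. Of the genes in the labels, Trp53 was at 221, 236, 77.2 and 84.8 CPM in GSC1 and at 191, 113 and 127 CPM in GSC2, Nf1 at 89.7 to 163 and 70.3 to 142 CPM, and Cdk4 at 252 to 574 and 328 to 609 CPM. These overlapping totals include RNA of the host and do not check the labels.

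The promoters are shown first, since the E2F letters are what many of these genes have in common. RefSeq gave a window of 300 bases, 250 before and 50 after the transcription start, for 30 of the 37 genes, and none for Mcm4, Gins1, Gins2, Gins4, Prim2, Pole and Rfc2. The letters searched on both strands, in their E2F form, were TTTCCCGC or TTTCGCGC or TTTGCCGC or TTTGGCGC, and overlapping matches were counted separately. At least 1 was present in 14 of the 30 genes (46.7%), in 4.35% of 11809 tested genes with a window, in 26.7% of 45 other replication genes and in 11.5% of 26 mitosis genes. The CHR letters TTTGAA, known from promoters of mitotic genes, showed the other order, with 13.3% of the replication genes, 61.5% of the mitosis genes and 14.4% of all tested genes. CCAAT was found in 63.3%, 80.8% and 42.3% of the same groups. A match is a string of letters in a window and not a bound site. The 170 bases before the start are given below 5′ to 3′ on the gene's strand, from RefSeq on GRCm38.p6, with matches to the E2F letters in capitals. Mcm5 (chr8:75109339-75109508, plus strand) and Mcm6 (chr1:128359706-128359875, minus strand) are helicase subunits with overlapping matches, Pola1 (chrX:93632156-93632325, minus strand) is the steepest of the genes with a match in the comparison with the brain score, and Mcm10 (chr2:5012792-5012961, minus strand) is the steepest of all and has none.
Mcm5: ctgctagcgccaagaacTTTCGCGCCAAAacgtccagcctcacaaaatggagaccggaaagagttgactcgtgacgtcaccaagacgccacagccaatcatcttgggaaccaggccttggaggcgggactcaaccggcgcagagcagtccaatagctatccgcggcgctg
Mcm6: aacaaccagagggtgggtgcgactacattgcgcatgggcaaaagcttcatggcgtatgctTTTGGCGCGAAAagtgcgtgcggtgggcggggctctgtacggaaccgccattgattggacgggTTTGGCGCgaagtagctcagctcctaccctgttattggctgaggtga
Pola1: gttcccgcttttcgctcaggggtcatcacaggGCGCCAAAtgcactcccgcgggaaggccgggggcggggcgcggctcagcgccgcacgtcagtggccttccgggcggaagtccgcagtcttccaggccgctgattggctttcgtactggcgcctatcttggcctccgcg
Mcm10: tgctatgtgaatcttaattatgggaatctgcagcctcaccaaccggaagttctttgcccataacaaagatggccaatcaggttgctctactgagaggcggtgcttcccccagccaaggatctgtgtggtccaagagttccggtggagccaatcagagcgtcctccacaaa

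The levels of the 37 genes varied together from tumour to tumour, and the split ran through the lines and not between them. Their summed level was 4104, 4704, 1306 and 1549 CPM in the GSC1 tumours and 4023, 2577 and 2827 CPM in the GSC2 tumours. GSC1 replicates 1 and 2 were 3.09-fold above replicates 3 and 4 of the same line, and the 3 GSC2 tumours lay between these pairs. The mean was 2916 ± 1739 CPM in GSC1 (SD, n = 4) and 3142 ± 773 CPM in GSC2 (SD, n = 3), so the lines overlapped. GSC1 replicates 3 and 4 were below the other 5 tumours for 35 of the 37 genes, and GSC1 replicates 1 and 2 with GSC2 replicate 1 were above the other 4 tumours for 33. GSC1 replicate 2 held the highest value of 26 genes and GSC1 replicate 3 the lowest of 32. The ratio of the highest to the lowest tumour ran from 1.52 for Gins4 to 14.1 for Pole, with a median of 3.57.

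**Figure D1:**
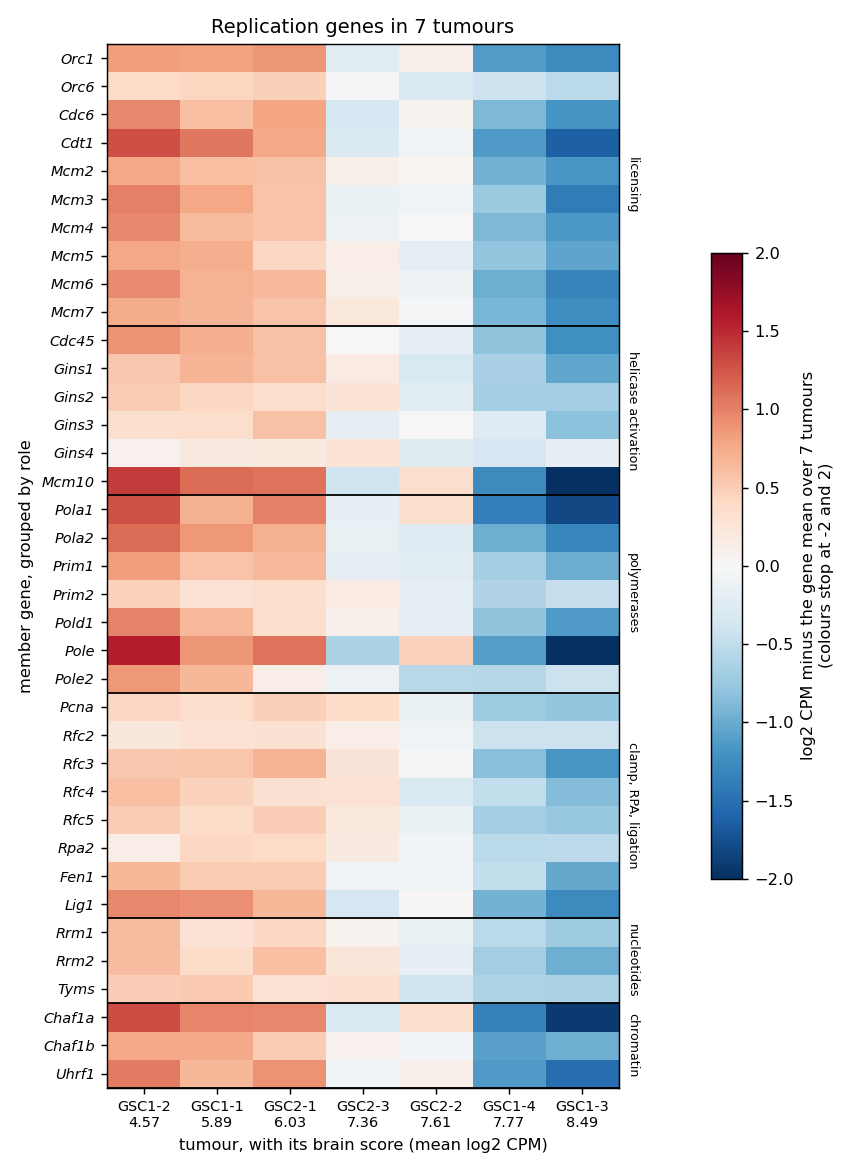
Each cell is the log2 CPM of 1 replication gene (row, grouped by role) in 1 tumour (column, ordered by brain score) minus the gene's mean over the 7 tumours; red is above and blue below that mean. The 3 tumours with the lowest scores are red for nearly every gene, and GSC1 replicates 4 and 3, at scores of 7.77 and 8.49, are blue.

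In edgeR's quasi-likelihood test of GSC2 against GSC1, 0 of the 37 genes passed a Benjamini-Hochberg adjusted p of 0.05, and neither did any of the 16068 genes tested (0%). An unadjusted p under 0.05 was reached by 0 of the 37, against 4.21% of all genes. The values of the lines overlapped for every gene of the list, where 5.58% of all genes did not overlap. DESeq2 called 0 of the 37 (1.19% of all genes) and limma-voom also 0 (0.00622%). Log2 fold changes, GSC2 minus GSC1, ran from -0.42 to 0.35 with a median of 0.09 (-0.03 over all genes) and standard errors of 0.23 to 0.87. Differences of the size of these errors, and larger ones too, could go undetected with these tumours. The result does not show that the lines were alike.

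Against the brain score, with the line in the model, 36 of the 37 genes fell with an adjusted p between 0.000681 and 0.0355, where 23.3% of all genes fell, and 0 rose, where 23.7% of all genes rose. The median slope was -0.51 in log2 per unit of score (0.00 over all genes). Score and genes were read from 1 set of libraries, so this describes the tumours and is no independent test. In such bulk samples fewer tumour cells and less replication RNA per cell cannot be told apart, and a CPM also falls when other RNA takes a larger share of the reads. Short-biased libraries moved with the score too. Among the 4 tumours not called short-biased, which leave 1 residual degree of freedom, 0 of the 37 passed (0.266% of all genes fell) and the median slope was -0.24. The part of the length bias and of other brain cell types in the result was not tested. With the replicate number as a block, although the labels do not say that the numbers pair the tumours, 17 passed (2.78% of all genes fell).

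**Figure D2:**
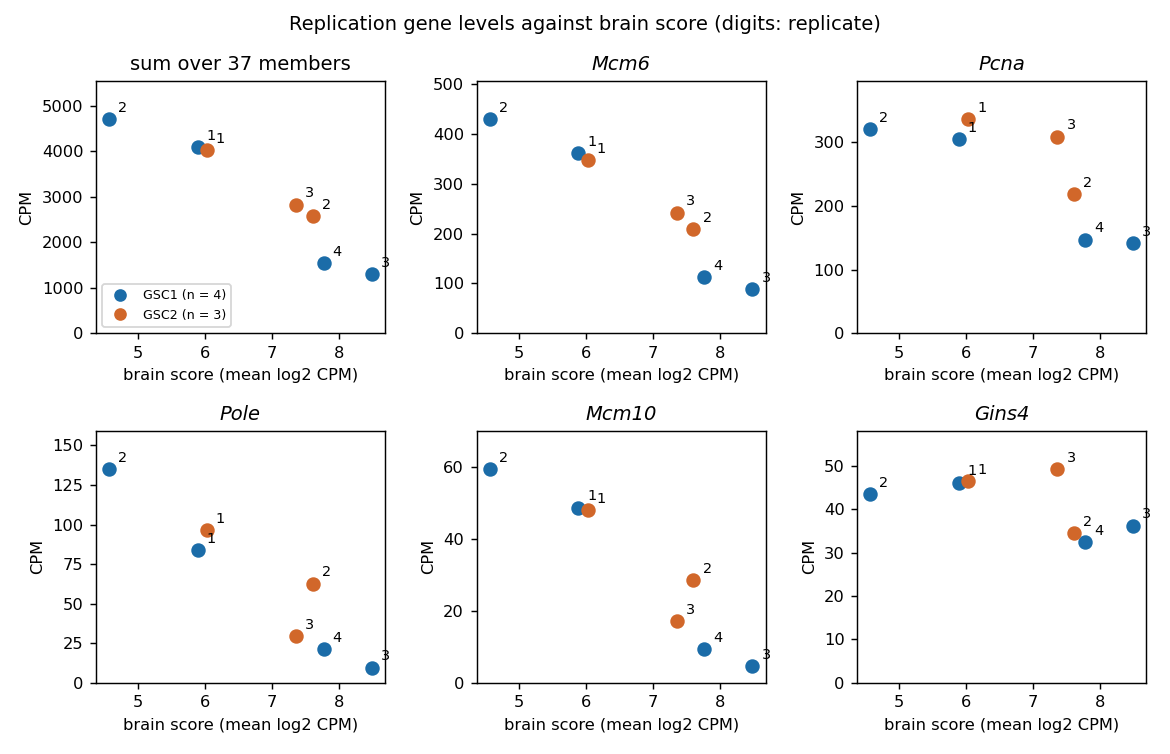
CPM (vertical axis, from 0) against the brain score (horizontal axis) for the sum of the 37 genes and for 5 of them, with 1 point per tumour, coloured by line and numbered by replicate. The sum is 4023 CPM or more at scores up to 6.03 and 1549 and 1306 CPM in GSC1 replicates 4 and 3, while Gins4 stays between 32.4 and 49.2 CPM.

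All 10 licensing genes fell with the score, with a median slope of -0.58. Mcm6, a subunit of the helicase ring whose promoter is printed above, was at 362, 429, 88.9 and 113 CPM in GSC1 and at 348, 209 and 242 CPM in GSC2. GSC1 replicates 1 and 2 and GSC2 replicate 1 were high, GSC1 replicates 3 and 4 were low, and the lines overlapped. Its slope was -0.61 (SE 0.08, adjusted p = 0.00112), and its line difference was 0.10 (SE 0.58). Mcm5, the other subunit shown, was at 204, 211, 59.3 and 71.6 CPM in GSC1 and at 164, 108 and 135 CPM in GSC2. It had the same high and low tumours and a slope of -0.50 (SE 0.08, adjusted p = 0.00267). Mcm2, Mcm3, Mcm4 and Mcm7, which complete the ring, had slopes of -0.53, -0.61, -0.56 and -0.54, so all 6 subunits lay between -0.61 and -0.50. Per kilobase of the longest transcript, the ring subunits lay within a narrow band of mean levels, from 40.3 CPM per kb for Mcm5 to 78.3 for Mcm7.

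Among the loaders the ratio of the highest to the lowest tumour ran from 2.03 for Orc6 to 7.61 for Cdt1, against 3.57 to 5.25 for the subunits of the ring. Cdt1, which brings the helicase to the origin, was at 113, 133, 17.5 and 24.8 CPM in GSC1 and at 91.5, 52.3 and 44.9 CPM in GSC2. GSC1 replicates 1 and 2 were highest, and the slope was -0.79 (SE 0.10, adjusted p = 0.00108). Cdc6, the ATPase that works with it, was at 39.8, 51.0, 11.5 and 14.0 CPM in GSC1 and at 44.9, 27.5 and 20.5 CPM in GSC2 (slope -0.59, SE 0.08, adjusted p = 0.00142). Orc1, the subunit of the origin recognition complex that comes and goes with the cell cycle, had the lowest counts of the list, 71 in GSC1 replicate 3. It was at 12.9, 13.1, 3.06 and 3.38 CPM in GSC1 and at 13.5, 7.89 and 6.27 CPM in GSC2 (slope -0.62, SE 0.12, adjusted p = 0.00432). Orc6, the smallest subunit, had the shallowest slope of the group at -0.30 (SE 0.07, adjusted p = 0.0098).

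Of the 6 genes that activate the helicase, 5 fell with the score and Gins4 did not pass. Mcm10, which helps the helicase to start unwinding, was at 48.8, 59.5, 4.69 and 9.33 CPM in GSC1 and at 48.2, 28.7 and 17.1 CPM in GSC2. It was 12.7-fold higher in GSC1 replicate 2 than in GSC1 replicate 3, and its slope of -0.94 (SE 0.14, adjusted p = 0.0019) was the steepest of the list although its printed promoter holds no E2F letters. Cdc45, the helicase cofactor, had a slope of -0.57 (SE 0.08, adjusted p = 0.00127). The GINS complex holds 1 copy each of 4 proteins. Gins4 was at 46.1, 43.4, 36.2 and 32.4 CPM in GSC1 and at 46.4, 34.4 and 49.2 CPM in GSC2, highest in GSC2 replicate 3 where most other genes of the list were at an intermediate level. Its slope was -0.11 (SE 0.07, adjusted p = 0.225), while Gins1, Gins2 and Gins3 had slopes of -0.46, -0.34 and -0.31, each of which passed. Whether Gins4 differs from the other 3 was not tested. With the length offset described below Gins4 passed too, at -0.21 (SE 0.05), beside -0.33 for Gins2, -0.35 for Gins3 and -0.56 (SE 0.09) for Gins1. Per kilobase of the longest annotated transcript the mean was 30.5 CPM for Gins4, 11.6 for Gins1, 7.71 for Gins2 and 3.30 for Gins3. Of these 4 genes Gins2 has the longest transcript but the shortest coding sequence, so their order can change with the length used. The values therefore do not give the relative supply of the subunits.

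All 7 polymerase and primase genes fell with the score (median slope -0.54). Pole, the catalytic subunit of polymerase epsilon, was at 83.9, 135, 9.58 and 21.2 CPM in GSC1 and at 96.5, 62.7 and 29.3 CPM in GSC2. It had the widest range of the list and a slope of -0.92 (SE 0.14, adjusted p = 0.00189). Its transcript, at 7163 bases, is among the longest of the list, and the 3 lowest tumours were the 3 short-biased ones. Pole2, its second subunit, has a shorter transcript (1706 bases) and was at 28.2, 32.4, 13.2 and 12 CPM in GSC1 and at 19.5, 12.1 and 16.3 CPM in GSC2. GSC2 replicate 2 and GSC1 replicate 4 were the lowest, and the slope was -0.39 (SE 0.08, adjusted p = 0.00626). Pole2 also had the largest line difference of the list by size, a log2 fold change of -0.42 (SE 0.43), which did not pass.

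Pola1, the catalytic subunit of polymerase alpha, whose promoter with 1 E2F match is printed above, was at 79.5, 117, 13.9 and 18.9 CPM in GSC1 and at 98.0, 61.4 and 43.2 CPM in GSC2. GSC1 replicates 3 and 4 were lowest, and the slope was -0.80 (SE 0.10, adjusted p = 0.00087). Its partner Pola2 had a slope of -0.68 (SE 0.08), and the primase subunits Prim1 and Prim2 had slopes of -0.51 (SE 0.06) and -0.28 (SE 0.07). Pold1, the catalytic subunit of polymerase delta, was at 92.5, 117, 26.9 and 33.6 CPM in GSC1 and at 74.8, 52.8 and 63.3 CPM in GSC2 (slope -0.54, SE 0.08, adjusted p = 0.00156).

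The 8 genes of the clamp, its loader, single-strand binding and strand joining all fell with the score, with a shallower median slope of -0.37. Pcna, the sliding clamp, was at 305, 321, 141 and 147 CPM in GSC1 and at 336, 219 and 309 CPM in GSC2. GSC2 replicate 3 was level with GSC1 replicates 1 and 2 for this gene, and the slope was -0.34 (SE 0.07, adjusted p = 0.00676). Pcna had the highest mean per kilobase of transcript in the list, 167 CPM per kb. Reads on its processed pseudogene Pcna-ps2 amounted to 4.96 to 6.20% of those on Pcna, so some reads could be split between them. The clamp loader genes Rfc3, Rfc4 and Rfc5 had slopes of -0.48, -0.38 and -0.36, and Rfc2 had -0.21 (SE 0.06, adjusted p = 0.0255). Rpa2, a subunit of the single-strand binding protein, was at 54.4, 44.7, 28.3 and 28.0 CPM in GSC1 and at 53.8, 39.1 and 46.4 CPM in GSC2 (slope -0.23, SE 0.08, adjusted p = 0.0355). Lig1, the ligase that seals nicks between Okazaki fragments, was at 148, 153, 32.5 and 41.0 CPM in GSC1 and at 125, 80.3 and 62.8 CPM in GSC2. It had the steepest slope of the group at -0.63 (SE 0.10, adjusted p = 0.00212), and Fen1, the flap nuclease that prepares those nicks, had -0.44 (SE 0.07, adjusted p = 0.00192).

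The 3 genes for nucleotide supply fell with the score as well. Rrm1, the large subunit of ribonucleotide reductase, was at 232, 295, 116 and 130 CPM in GSC1 and at 252, 171 and 200 CPM in GSC2 (slope -0.36, SE 0.05, adjusted p = 0.00205). Rrm2, the small subunit, was at 108, 128, 42.6 and 51.5 CPM in GSC1 and at 127, 74.5 and 98.5 CPM in GSC2 (slope -0.43, SE 0.06, adjusted p = 0.00171). Tyms, thymidylate synthase, was at 78.1, 75.9, 34.7 and 35.2 CPM in GSC1 and at 66.4, 41.2 and 68.2 CPM in GSC2 (slope -0.34, SE 0.09, adjusted p = 0.015). For all 3 genes GSC1 replicates 3 and 4 were lowest, and GSC2 replicate 3 was above GSC2 replicate 2.

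The 3 chromatin genes had the steepest median slope of the 6 roles, -0.69. Chaf1a, the large subunit of the chromatin assembly factor that places histones on new DNA, was at 74.4, 93.2, 9.98 and 14.7 CPM in GSC1 and at 73.1, 47.9 and 30.4 CPM in GSC2 (slope -0.85, SE 0.12, adjusted p = 0.00171). Chaf1b, its partner, was at 62.4, 62.3, 18.8 and 17.5 CPM in GSC1 and at 52.9, 35.7 and 39.4 CPM in GSC2 (slope -0.52, SE 0.09, adjusted p = 0.00399). Uhrf1, which guides the copying of DNA methylation, was at 185, 239, 40.6 and 53.1 CPM in GSC1 and at 217, 125 and 112 CPM in GSC2. Its adjusted p of 0.000681 was the smallest of the list (slope -0.69, SE 0.08). GSC1 replicates 3 and 4 were again lowest for all 3, and the lines overlapped. Exons of 13 genes of the list share bases with another annotated gene, by at least 500 bases for Chaf1a, Gins2, Fen1 and Rfc2, and the strand setting of the counting is not given in the sources used here. Ubxn6, which shares 4648 bases with Chaf1a, had a slope of 0.20 (SE 0.07), opposite in sign to that of Chaf1a. Gse1, which shares 2758 bases with Gins2, had -0.27 (SE 0.10), the same sign as Gins2. Lat2, which overlaps Rfc2, had -0.09 (SE 0.12), and Tmem258, which overlaps Fen1, had 0.03 (SE 0.10). The part of such overlaps in the slopes was not tested.

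Several other subunits of the same complexes had slopes near 0. In the origin recognition complex, Orc2 fell (slope -0.29, SE 0.07, adjusted p = 0.00887), while Orc3, Orc4 and Orc5 had slopes of 0.01, -0.09 and -0.07 and did not pass. Orc3 was at 29.9, 37.5, 36.2 and 37.9 CPM in GSC1 and at 32.4, 30.8 and 35.0 CPM in GSC2, so the tumours with little Orc1 held as much Orc3 as the others. Of polymerase epsilon, the small histone-fold subunits Pole3 and Pole4 had slopes of -0.03 (SE 0.07) and 0.06 (SE 0.07), against -0.92 for Pole. Pole4 was at 68.4, 68.3, 75.8 and 78.8 CPM in GSC1 and at 68.0, 63.1 and 92.6 CPM in GSC2. Of polymerase delta, Pold2 (-0.23) and Pold3 (-0.47) fell, and Pold4 (-0.13, adjusted p = 0.234) did not pass. Rpa1 fell with a slope of -0.17 (SE 0.05, adjusted p = 0.029), and Rpa3 had -0.13 (SE 0.08, adjusted p = 0.252). Rfc1, the large clamp loader subunit, was not near 0 and fell with a slope of -0.70 (SE 0.16, adjusted p = 0.0101), steeper than Rfc2 to Rfc5. Rfc1 has a long transcript (4751 bases), and GSC2 replicate 3 held 19.8 CPM of it against 65.2 CPM in GSC2 replicate 2. Rrm2b, the ribonucleotide reductase subunit that is also made outside S phase, had a slope of 0.11 (SE 0.09, adjusted p = 0.33). Differences between the slopes of 2 subunits were not tested.

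**Figure D3:**
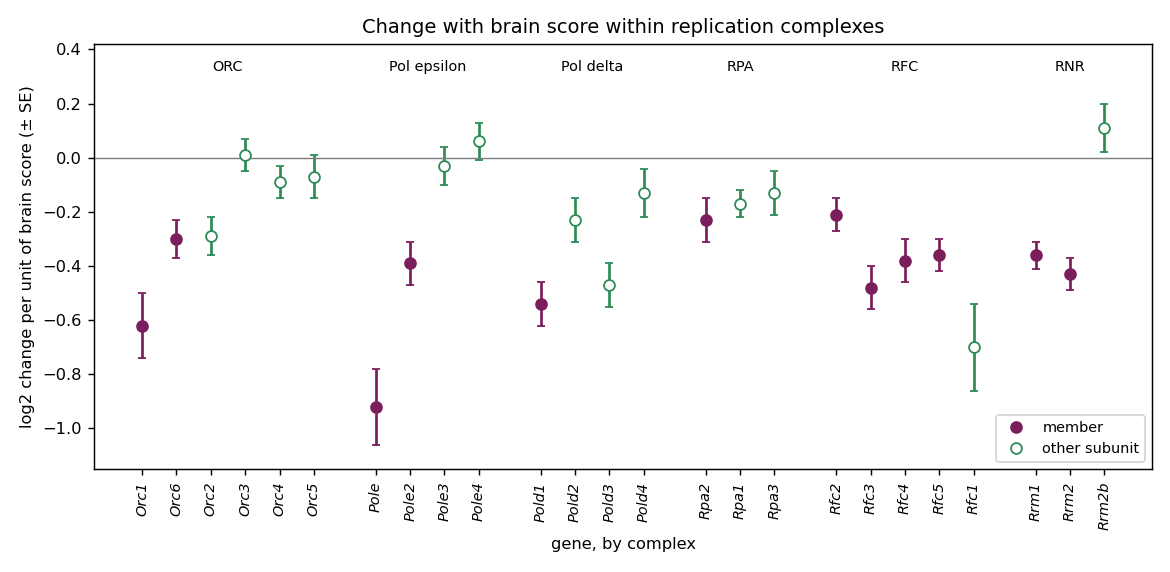
Log2 change per unit of brain score (vertical axis, bars ± SE over 7 tumours) for the subunits of 6 replication complexes, with filled points for the 37 listed genes and open points for other subunits (RNR is ribonucleotide reductase). Orc3 to Orc5, Pole3, Pole4 and Rrm2b lie near 0, whereas Pole, Rfc1 and Orc1 lie at -0.92, -0.70 and -0.62.

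Of 53 further replication genes, 40 fell with the score, 0 rose and 13 did not pass, with a median slope of -0.43. All 30 mitosis genes fell (median -0.60), and of 21 regulators of the step from G1 to S phase 16 fell, 0 rose and 5 did not pass (median -0.45). The same background of 23.3% applies to these counts. Slopes of the 14 listed genes with E2F letters ran from -0.80 to -0.31 (median -0.60), and those of the 16 without ran from -0.94 to -0.23 (median -0.44), so the ranges overlapped.

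At equal brain score, 36 of the 37 genes had a fold change above 0 in GSC2 against GSC1, as did 54.9% of all genes, with a median of 0.39 (0.05 over all genes). This was not particular to the list. Above 0 were also 49 of the 53 further replication genes (median 0.40), all 30 mitosis genes (0.68) and 19 of the 21 G1 to S regulators (0.45). None of the 37 passed (0.653% of all genes did), and 14 had an unadjusted p under 0.05 in the edgeR fit, all 14 higher in GSC2, against 9.88% of all genes in that direction. Pola1 came closest, at 0.96 (SE 0.23, adjusted p = 0.105), followed by Uhrf1 at 0.76 (SE 0.19, adjusted p = 0.11). DESeq2 called these 2 genes (adjusted p = 0.0105 and 0.0172), where it called 3.82% of all genes higher. An equal score did not level its 2 marker lists. In the edgeR fit 13 of 14 oligodendrocyte markers were above 0 (median 0.48) and 13 of 15 neuron markers below 0 (median -0.42). None of these markers passed. With a score from the oligodendrocyte markers alone the edgeR fit called 5, Mcm10, Pola1, Pole, Chaf1a and Uhrf1 (2.33% of all genes), and the median was 0.63. With the neuron markers alone it called 0 (0.143% of all genes were higher) and the median was 0.16. Without the short-biased libraries it called 0 (0.854% of all genes were higher) with a median of -0.04. In the edgeR fit with all tumours and both marker lists in the score, only Pole2 of the 37 genes was below 0, at -0.20 (SE 0.20).

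**Figure D4:**
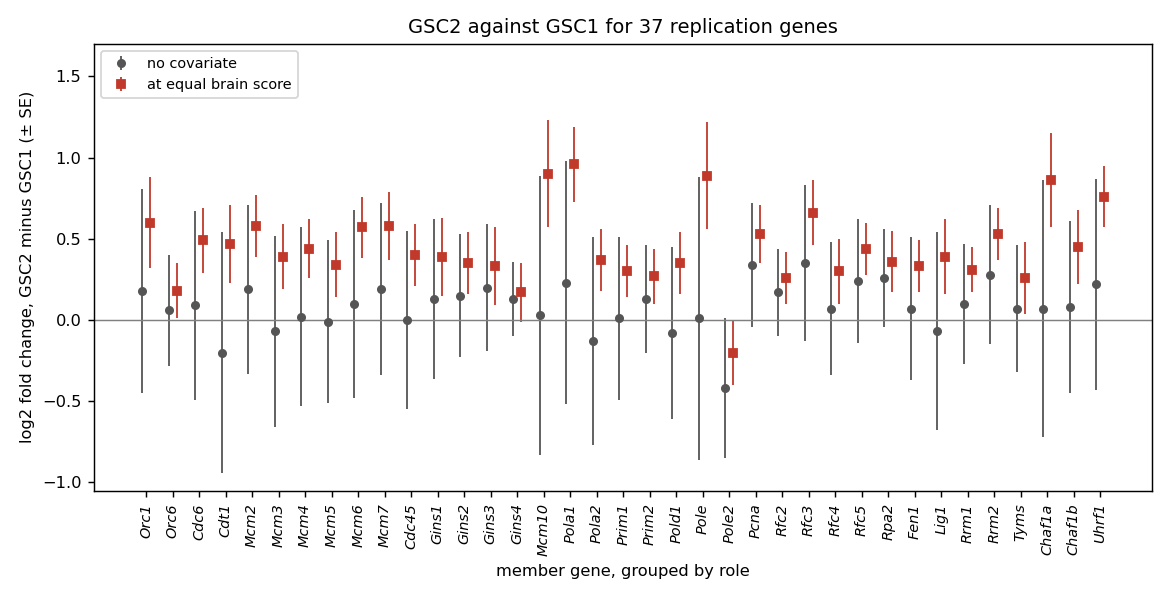
Log2 fold change of GSC2 minus GSC1 (vertical axis, bars ± SE, n = 4 and 3 tumours) for the 37 genes, without a covariate (grey circles) and at equal brain score (red squares). Every grey bar spans 0, and the red points lie above 0 for 36 genes, up to 0.96 for Pola1.

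Among the further genes named by the smallest p between the lines, Hells, a chromatin remodeller needed for DNA methylation, was at 119, 170, 26.9 and 35.1 CPM in GSC1 and at 248, 123 and 83.6 CPM in GSC2. The lines overlapped (log2 fold change 0.79, SE 0.70), and at equal score the difference passed (1.30, SE 0.22, adjusted p = 0.0479). The other 5 replication genes named this way (Dck, Rpa3, Pole3, Asf1b and Orc4) passed neither test, and their line differences ran from -0.47 for Asf1b to 0.42 for Rpa3. The 6 mitosis genes (Pttg1, Ccnf, Mad2l1, Plk1, Cdk1 and Kif11) had line differences of 0.37 to 0.61 and of 0.68 to 1.14 at equal score, where Kif11, a spindle motor, came closest (adjusted p = 0.0503). Mycn, a Myc family transcription factor, was at 2.55, 1.40, 2.66 and 2.57 CPM in GSC1 and at 8.65, 8.42 and 5.46 CPM in GSC2. Every GSC2 tumour was above every GSC1 tumour, on counts of 38 to 240. This held for 1 of the 21 G1 to S regulators, where 5.58% of all genes did not overlap in either direction. The Mycn difference of 1.71 (SE 0.38) did not pass (adjusted p = 0.524, or 0.0637 at equal score). Cdkn2c, Cdkn1b, Ccne2, E2f3 and Rb1 had line differences of 0.24 to 0.61, none of which passed, with overlapping lines.

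Long and short genes of the list behaved differently between a pair of tumours of 1 line, a difference given here as values with no test. GSC2 replicates 2 and 3 had scores of 7.61 and 7.36, and only replicate 3 was short-biased (-0.70 against 0.64). Of the 37 genes 25 were higher in replicate 3 and 12 were lower. Among the 19 genes with a transcript of up to 3128 bases, 16 were higher in replicate 3 (median log2 ratio 0.25), and among the 18 longer ones 9 were higher and 9 lower (median 0.01). By coding sequence the split was wider, with 17 of 19 genes of up to 1698 coding bases higher (median 0.34) and 8 of 18 longer ones (median -0.10). The lowest log2 ratios were those of Pole (-1.10), Mcm10 (-0.75), Chaf1a (-0.66) and Pola1 (-0.51), and the highest were those of Tyms (0.73), Rfc4 (0.59) and Gins4 (0.52). The genes with the lowest ratios here are also those with the steepest slopes on the score, together with Cdt1 (-0.22). Ratio and slope both use the values of these 2 tumours, so they are not independent.

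**Figure D5:**
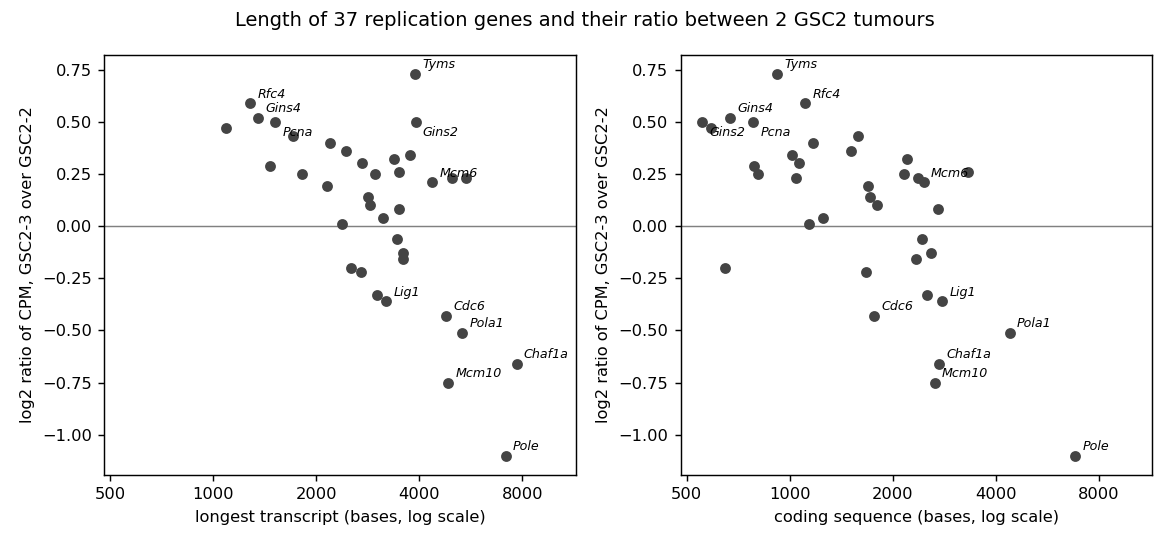
Log2 ratio of CPM in GSC2 replicate 3 over GSC2 replicate 2 (vertical axis) for the 37 genes against the longest annotated transcript (left) and the coding sequence (right), both on log axes in bases, with 1 point per gene. Pole, Mcm10, Chaf1a and Pola1 lie lowest, at -1.10 to -0.51, and Tyms, with a long transcript but 921 coding bases, lies highest at 0.73.

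Over all tumours the long genes of the list minus the short ones, as a median of log2 deviations, were at 0.11, 0.34, -0.20 and -0.24 in GSC1 and at 0.01, 0.14 and -0.08 in GSC2. The 3 short-biased libraries were the 3 below 0, and their mean was 0.32 lower than that of the other 4 (a difference of -0.32 in log2, or -0.65 when genes were split by coding length). The ratio of the summed CPM of the 37 genes to that of the 30 mitosis genes also differed, at 2.42, 2.06 and 1.93 in the short-biased tumours and 1.53 to 1.86 in the others. The short-biased tumours also had scores above 7, and the mitosis genes had the steeper median slope (-0.60 against -0.51). GSC2 replicate 2, with a score of 7.61, had a ratio of 1.60. The parts of length and score in this ratio were not tested. The ratio to the further replication genes did not separate the short-biased tumours from the others. It was 0.67, 0.691 and 0.908 in the short-biased tumours and 0.77 to 0.909 in the others. With a length trend of each library taken out as an offset, 36 of the 37 genes fell with the score (26.0% of all genes), Gins4 now among them and Rfc2 not (adjusted p = 0.0809). The median slope was then -0.56 for the long and -0.49 for the short genes, against -0.58 and -0.44 without the offset. With the offset 0 of the 37 genes passed between the lines, with or without the score.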

How the data were processed

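Total RNA of 7 tumours (RNeasy Plus Mini kit, NEBNext Ultra libraries, per the labels' protocols) was sequenced. The submitters' processing notes name TopHat2 (2.0.11), HTSeq, mm9 and dm3, the builds with no role. The authors deposited unnormalised whole-number counts per Ensembl gene, and 5 summary lines per table were left out (6.19 to 14.2% of listed reads on no gene, 12.8 to 21.0% without a unique position). How HTSeq was run (version, mode, strand) is not given in the sources used here. Lengths and overlaps came from GENCODE on GRCm38 and promoters from RefSeq on GRCm38.p6, matched by gene and not by converting coordinates.

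The tests were edgeR's (4.0.16, in R 4.3.3: TMM, filterByExpr, robust quasi-likelihood, Benjamini-Hochberg over 16068 genes, threshold 0.05), for the line, the brain score and the line at equal score. Alternatives were DESeq2 1.42.0, limma-voom 3.58.1, RLE factors, a filter at 5 CPM or none, the replicate number as a block, a length offset, either marker list as the score, the score without the line, other length splits, no short-biased libraries and each tumour left out. The scripts were tested on simulated data. Python 3.11.15 made the summaries. All 37 genes passed the filter. Members, marker lists, tests and alternatives were chosen with earlier results of these data known. Named are all members, other subunits of their complexes and the 6 genes of each further list with the smallest line p and a mean of at least 1 CPM. Genes that overlap a member were named after their values were seen, as were the genes of the labels and the T and NK cell markers.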

Additional observations from a re-analysis of the deposited data

How the results depend on the processing

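In every setting run, 0 of the 37 genes passed between the lines, while the median line difference of 0.09 was -0.42 without the short-biased libraries, where 30 signs differed, and ran from -0.14 (without GSC1 replicate 3 or GSC2 replicate 1) to 0.35 (without GSC1 replicate 2) with 1 tumour left out. The count that fell with the score was 27 (without GSC1 replicate 3) to 36 with 1 tumour left out, where 10.6 to 24.3% of all genes fell. It was 33 to 36 under RLE factors, other filters, DESeq2, limma-voom, the length offset, either marker list as the score and the score without the line (14.4 to 26.0% of all genes), and 0 without the short-biased libraries (0.266%). With the replicate block it was 17 (2.78% of all genes). The labels do not say that the numbers pair the tumours. In deviations from the line mean, same-numbered tumours correlated at 0.583, -0.306 and 0.409. These values cannot show whether the numbers stand for a shared batch, since the tumours also differed in brain score. Not every tumour correlated best with its own number, and the block gave 0 calls between the lines, also at equal score. The median slope of -0.51 was -0.24 without the short-biased libraries, -0.42 with the oligodendrocyte list as the score and -0.61 (without GSC1 replicate 2) to -0.46 with 1 tumour left out. All 37 slopes kept their sign in each setting. At equal score, DESeq2 called 2 genes and the oligodendrocyte list as the score 5, and leaving out 1 tumour called 0. Without the short-biased libraries 22 signs differed there, and Cdt1 (-0.31), Mcm5 (-0.34) and Pold1 (-0.33) turned negative beyond their standard error. The long-minus-short difference of -0.32 was -0.65 by coding length, and the cause was not tested. Counts were at least 71 per gene and tumour, the lines had 4 and 3 tumours, and which of depth, number of tumours and library bias limits the precision most was not tested.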
